A study of Mus musculus with 4 samples.

Results

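Growth factor signals run from receptor tyrosine kinases through RAS, RAF and MEK to the kinase ERK, and cells keep that cascade in check with proteins that ERK itself induces. Dual-specificity phosphatases (DUSPs) remove phosphate from activated MAP kinases, while the Sprouty and Spred proteins act upstream, at the level of receptors and RAS. The ETS factors Etv1, Etv4 and Etv5 (the PEA3 group) and Phlda1 are not inhibitors of the same kind, but their transcripts also follow ERK activity and are commonly read with the feedback genes as an output of the pathway. DUSPs divide into typical members, which carry a MAP kinase docking domain, and atypical members, which lack it and in many cases act on other substrates.

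The members were taken by symbol: every numbered Dusp gene, every numbered Spry and Spred gene, Etv1, Etv4, Etv5 and Phlda1. This gave 32 of the 15424 genes in the deposited table, made up of 22 Dusp genes, 3 Sprouty genes, 3 Spred genes, 3 ETS factor genes and Phlda1. Dusp21, Dusp26 and Spry3 are not analysed here. The rule uses no measured value, though it was chosen with earlier results of these data known.

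RNA came from subcutaneous tumors that R728T1 cells, derived from a mouse model of Rb and P53, formed in nude mice. Both groups are allografts of this one cell line; luciferase was the shRNA target in controls (shLuc) and Taz in the other group (shTaz), with 2 samples labelled in each. The labels give neither the promoter behind the shRNA nor its target sequence, and whole tumors hold host cells as well as grafted ones. The table gives 1 FPKM column per group (fragments scaled to transcript length and library total), so replicate error cannot be measured and no SD, n or p-value is given below.

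Wwtr1, which encodes TAZ, measured 23.4 FPKM in control tumors and 15.1 FPKM in shTaz tumors. The labelled cell type is small cell lung cancer, yet its neuroendocrine markers were near the floor: Chga and Calca have no row, Syp was at 0.557 and 0.447 FPKM, and Insm1 at 0.169 FPKM and listed at 0. Ncam1, at 39.8 and 43.8 FPKM, and Uchl1, at 10.1 and 1.51 FPKM, were well above the floor in the control tumors, and Uchl1 was 2-fold lower in the shTaz tumors. Sequencing depth is unknown. The difference between the columns depended on base composition: shTaz values ran high for transcripts poor in GC and low for those rich in it, with a Spearman correlation of -0.56 between difference and GC content across genes, which are not independent replicates. Values with that trend removed are therefore given for many of the genes below, and the plot of differences by processing shows them for all members above the minimum.

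The promoters of 4 members are shown as examples from both sides of the set: Dusp1 and Spry1 were its lowest members, and Spred2 and Dusp5 were higher in the shTaz column. Dusp4 is not among them. Each is the 250 bases before the RefSeq start site (GRCm38.p6), 5′ to 3′ on the gene's own strand. Capitals mark matches, on either strand, to the core of the cAMP response element (TGACG), to the ETS core CCGGAA or to the CArG box bound by serum response factor.
Dusp1 (chr17:26508473-26508722, minus strand): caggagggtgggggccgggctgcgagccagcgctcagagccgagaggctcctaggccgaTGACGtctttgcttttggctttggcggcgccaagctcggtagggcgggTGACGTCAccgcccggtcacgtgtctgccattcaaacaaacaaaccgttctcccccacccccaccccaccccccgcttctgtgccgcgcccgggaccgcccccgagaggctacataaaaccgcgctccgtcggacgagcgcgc
Spry1 (chr3:37639697-37639946, plus strand): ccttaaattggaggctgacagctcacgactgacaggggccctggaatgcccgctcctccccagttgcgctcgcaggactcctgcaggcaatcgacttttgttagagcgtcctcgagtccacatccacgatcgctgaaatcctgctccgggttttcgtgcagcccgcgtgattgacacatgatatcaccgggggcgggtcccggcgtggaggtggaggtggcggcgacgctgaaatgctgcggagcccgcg
Spred2 (chr11:19924192-19924441, plus strand): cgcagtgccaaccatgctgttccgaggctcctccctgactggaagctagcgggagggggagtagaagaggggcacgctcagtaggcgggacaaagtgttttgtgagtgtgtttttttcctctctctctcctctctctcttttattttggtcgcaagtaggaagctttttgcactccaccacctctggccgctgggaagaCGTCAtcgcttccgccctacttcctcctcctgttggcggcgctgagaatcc
Dusp5 (chr19:53528895-53529144, plus strand): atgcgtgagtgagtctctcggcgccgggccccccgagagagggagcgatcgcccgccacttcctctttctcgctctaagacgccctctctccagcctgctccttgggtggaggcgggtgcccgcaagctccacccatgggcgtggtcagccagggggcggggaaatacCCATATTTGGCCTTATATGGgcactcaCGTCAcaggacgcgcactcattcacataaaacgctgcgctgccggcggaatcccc

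In Dusp1 the capitals spell a TGACG from 191 to 187 bases before the start and a complete palindrome, TGACGTCA, further on, whose overlapping TGACG matches on both strands begin 143 bases before the start. Dusp5 holds 2 CArG boxes directly side by side, from 82 to 73 and from 72 to 63 bases before the start, followed by a TGACG on the opposite strand. Spred2 has 1 TGACG, 51 to 47 bases before the start and on the opposite strand. The Spry1 window has no match to any motif searched for. The shorter ETS core GGAA was not searched for. RefSeq windows were found for 25 of the 32 members, 30 windows in all. TGACG was present in 7 of the 30 (23.3%) against 17.8% of all 32851 windows of this length, CCGGAA in 2 (6.67%) against 12.0%, the CArG box in 1 (3.33%) against 1.47%, and the full palindrome, searched for after the windows had been read, in 2 (Dusp1 and Dusp8) against 1.55%. The member windows had a median GC content of 59.4% against 52.4% for all windows, and the shares were not adjusted for this. These are letter matches, not measured binding.

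Levels and differences are given as the shLuc value followed by the shTaz value. The difference is log2((shTaz FPKM + 1) / (shLuc FPKM + 1)), computed where the mean of both columns reached 1 FPKM, as it did for 25 of the 32 members and 11650 genes in all. Adding 1 FPKM understates the change of the lowest genes. A difference of 1 or more in size is called 2-fold.

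Of the 25 members, 3 (12.0%) differed 2-fold: Dusp1 and Spry1 were lower in the shTaz column and Dusp4 was higher. Among all genes 7.21% differed 2-fold, 3.25% of them lower and 3.96% higher, so the share among the members is not far from the background for so few genes. The median difference of the 25 was 0.25 against 0.12 for all genes, and 15 of them lay above the all-gene median. As deposited, the size of the differences was ordinary too, with a median absolute difference of 0.39 against 0.36. This depended on the processing: it was 0.39 against 0.26 without the GC trend and 0.36 against 0.26 without the GC and length trends. After quantile normalization it was 0.28 against 0.32. The 3 genes past 2-fold thus did not share a direction, and inhibitors of the same kinase lay at opposite ends. In bulk tumors, fewer cells of a type and less RNA per cell cannot be told apart.

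**Figure D1:**
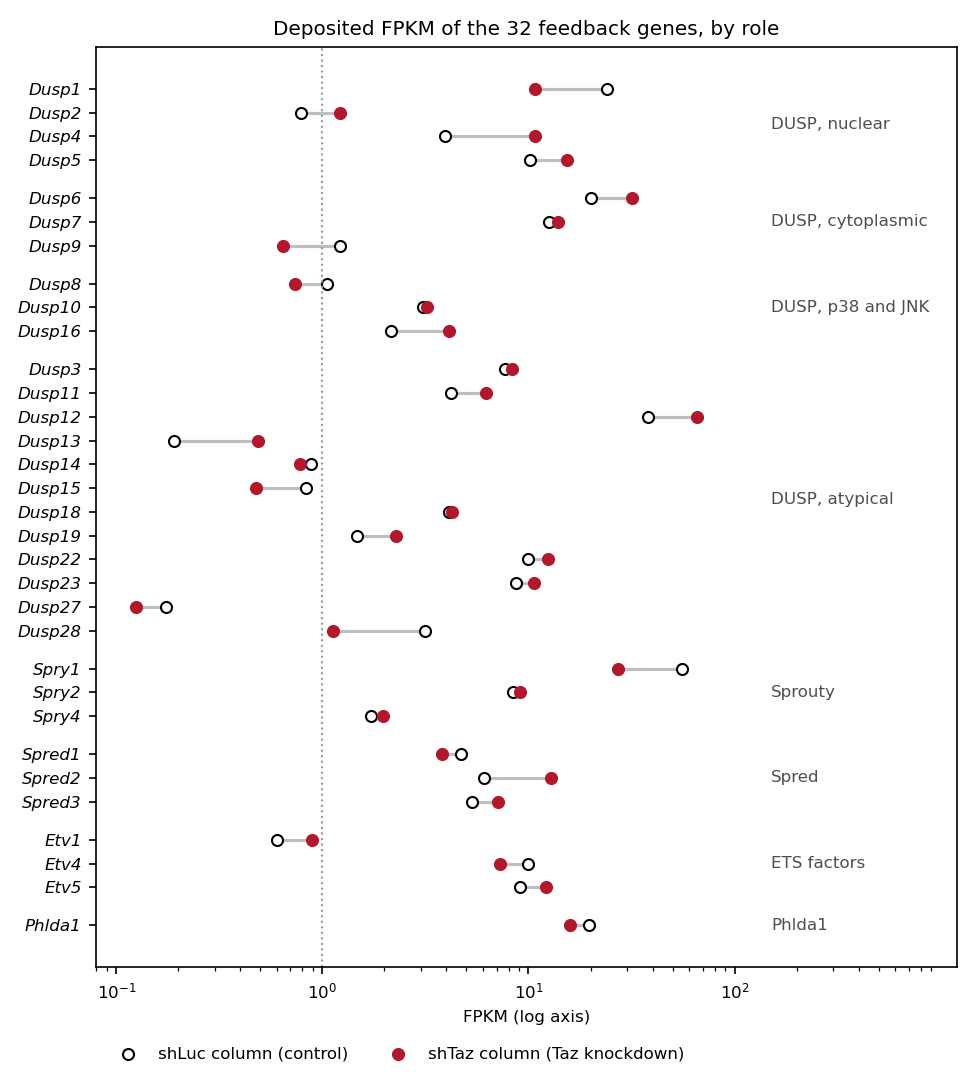
Deposited FPKM (log axis) of the 32 members, ordered by role, with the shLuc column as open circles and the shTaz column as filled circles, each a single value per group; the dotted line marks 1 FPKM. Spry1 is the highest member in shLuc and Dusp12 in shTaz, and Dusp1 and Dusp4 meet at 10.7 and 10.8 FPKM in the shTaz column.

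The nuclear, inducible phosphatases held both ends of the set. Dusp1 (also MKP-1), an immediate early gene whose product acts on p38, JNK and ERK, measured 24.0 FPKM (shLuc) and 10.7 FPKM (shTaz). The shTaz value was 44.7% of the control value, a log2 difference of -1.09, and 2.68% of all genes lay lower. Dusp4 (MKP-2), which acts on ERK and JNK in the nucleus, was at 3.94 and 10.8 FPKM. This was 2.73 times the control value and a log2 difference of 1.25, with 98.5% of all genes below it. Dusp4 was thus the highest of the 25 members on this scale and Dusp1 the lowest.

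Dusp5, a nuclear phosphatase selective for ERK, was at 10.2 and 15.3 FPKM, a log2 difference of 0.54. Dusp2 (PAC1), best known from activated lymphoid and myeloid cells, was at 0.791 and 1.22 FPKM and passed the minimum only through its shTaz value. The 4 genes together were nearly level, at 38.9 and 38.03 FPKM in sum, but their make-up differed. Dusp1 made up 61.6% of that sum in control tumors and 28.2% in shTaz tumors, Dusp4 went from 10.1% to 28.3%, and Dusp5 from 26.2% to 40.3%. The ratio of Dusp1 to Dusp4 was 6.08 in the control column and 0.997 in the other, a comparison that does not depend on how the columns are scaled to each other.

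Base composition was similar on both sides of this contrast. The longest Dusp1 transcript is 2313 bases with 54.0% GC, that of Dusp4 2740 bases with 56.0% GC and that of Dusp5 2473 bases with 56.7% GC. With the GC trend removed, the differences were -1.04 for Dusp1, 1.41 for Dusp4 and 0.74 for Dusp5. Genes were ranked by GC content and divided into 10 groups of near equal number. Among the 1105 genes in the group of Dusp4, from 55.9% to 58.1% GC, 99.1% lay below Dusp4 and 96.7% below Dusp5, while Spry1, also in this group, had 5.79% below it. In mm10 the GENCODE gene models span chr17:26505590-26562128 (minus strand) for Dusp1 and chr8:34807297-34819894 (plus strand) for Dusp4.

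**Figure D2:**
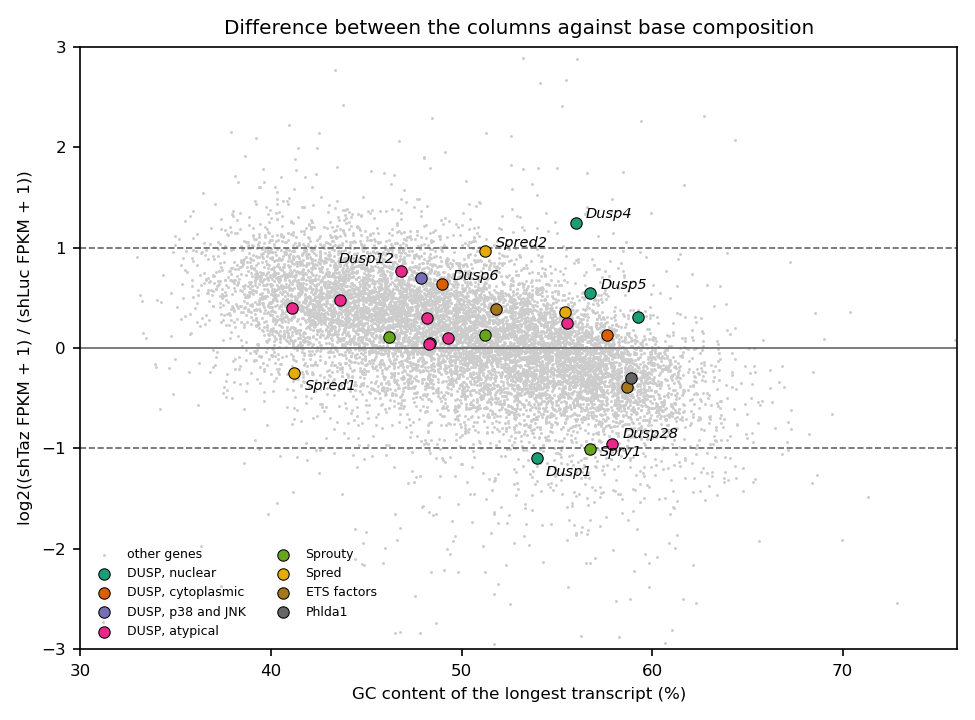
Log2 difference of each gene (vertical axis) against the GC content of its longest transcript in percent (horizontal axis), with the members coloured by role over all other genes in grey; dashed lines mark 2-fold, and 26 genes beyond 3 on the vertical axis are not drawn. Dusp4, Dusp5 and Spry1 share nearly the same GC content and lie at 1.25, 0.54 and -1.01.

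Of the cytoplasmic, ERK-selective phosphatases as deposited, Dusp6 was higher, Dusp7 nearly level and the scarce Dusp9 lower. Dusp6 (MKP-3), a widely used transcript readout of ERK activity, was at 20.1 and 31.7 FPKM, 1.58 times the control value. Its log2 difference of 0.63 lay above that of 85.0% of all genes and was 0.43 with the GC trend removed. Dusp7, a close relative, was at 12.6 and 13.9 FPKM (0.13), and its sign turned to -0.02 with the length trend removed. With the GC trend removed it was 0.38, close to Dusp6, and with both trends removed 0.36. Dusp9 (MKP-4), known from placenta and kidney, was at 1.21 and 0.646 FPKM, under the minimum mean. In sum the 3 genes were at 33.9 and 46.3 FPKM, with Dusp6 supplying 59.2% and 68.5%.

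Phosphatases selective for p38 and JNK were low. Dusp16 (MKP-7), which acts on JNK, was at 2.16 and 4.11 FPKM, a difference of 0.69 that was 0.43 with the GC trend removed. Dusp10 (MKP-5), which acts on p38 and JNK, was nearly equal at 3.06 and 3.22 FPKM. Dusp8, best known from brain and heart, was at 1.05 and 0.734 FPKM. Over all 10 typical DUSPs the sum was 79.1 and 92.4 FPKM. The leading gene of the class was Dusp1 in the shLuc column (30.3% of the sum) and Dusp6 in the shTaz column (34.3%).

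Among the Sproutys, Spry1 was the abundant gene and the one that differed. It was the highest of all 32 members in control tumors, at 55.8 FPKM, against 27.2 FPKM in shTaz tumors, 48.7% of the control value. The log2 difference was -1.01, just past 2-fold. It stayed lower but fell short of 2-fold after removal of the GC trend (-0.81) or of the GC and length trends (-0.80) and after quantile normalization (-0.94). Its mm10 gene model spans chr3:37639947-37644598 (plus strand).

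Spry2, the Sprouty best studied as a brake on receptor signalling, was nearly level at 8.40 and 9.12 FPKM. Spry4, which is induced by ERK in many cell types, was at 1.72 and 1.98 FPKM. The sign of both differences (0.11 and 0.13) turned under at least 1 other way of processing. Because Spry1 carried 84.7% of the family's FPKM in the control column and 71.0% in the other, the summed level of the 3 genes was 66.0 and 38.3 FPKM, or 58.1% of control. The ratio of Spry1 to Spry2 was 6.65 and 2.99.

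The Spreds, which dock neurofibromin at the membrane to switch RAS off, differed among themselves. Spred2 was at 6.10 and 12.8 FPKM, 2.11 times the control value. Its log2 difference was 0.96, above that of 95.4% of all genes and just short of 2-fold, and it passed 2-fold with a pseudocount of 0.1 (1.06). Spred3 was at 5.33 and 7.12 FPKM (0.36). Spred1, the member mutated in Legius syndrome, was lower at 4.71 and 3.81 FPKM, a difference of -0.25. Spred1 has an AT-rich transcript (41.2% GC), and with the GC trend removed its difference was -0.76; 5.24% of the genes in its own GC group lay lower. Spred2 supplied 37.8% of the family's FPKM in control tumors and 54.0% in shTaz tumors, and Spred1 29.2% and 16.0%.

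**Figure D3:**
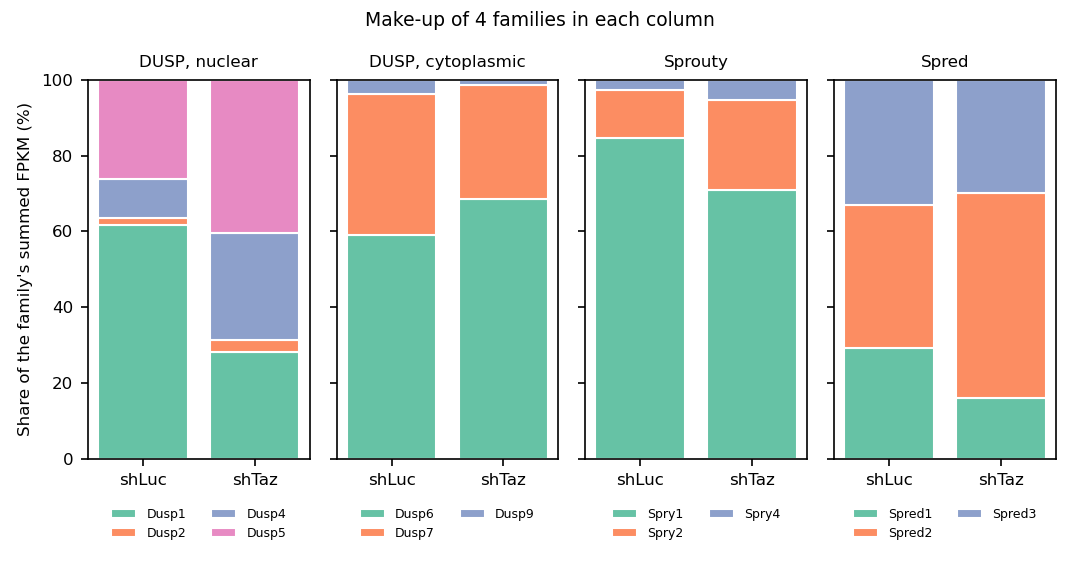
Share of each gene (%) in the summed FPKM of 4 families, with the shLuc column on the left and the shTaz column on the right of each panel; each bar is 1 value per group. Dusp1 is 61.6% and 28.2% of the nuclear phosphatases, Spry1 84.7% and 71.0% of the Sproutys, and Spred2 37.8% and 54.0% of the Spreds.

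The transcription factors were split: Etv5 was higher, as Dusp6 was, and Etv4 lower, as Phlda1 was. Etv4 was at 9.89 and 7.30 FPKM, a difference of -0.39, and Etv5 at 9.06 and 12.2 FPKM, a difference of 0.39. These paralogs thus differed by the same amount in opposite directions, and the ratio of Etv5 to Etv4 was 0.916 in control tumors and 1.67 in shTaz tumors. Etv4 has a GC-rich transcript (58.7%) and was nearly level with the GC trend removed (-0.08), whereas Etv5 was still higher (0.34). Etv1 was under the minimum at 0.603 and 0.887 FPKM. Phlda1, a pleckstrin homology-like protein gene induced by growth factors, was at 19.7 and 15.9 FPKM (-0.30), and its sign turned with the GC trend removed (0.02).

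Of the 8 measured atypical DUSPs 7 were higher, none of them 2-fold, with a median of 0.27 that turned to -0.03 without the GC trend and -0.06 without either trend. Dusp12, a zinc-binding phosphatase, was the most abundant DUSP in both columns, at 38.1 and 65.5 FPKM, and its log2 difference of 0.77 was 0.46 with the GC trend removed. Dusp11, which removes phosphates from the 5′ end of RNA rather than from MAP kinases, was at 4.20 and 6.22 FPKM, a difference of 0.48 that was 0.04 with the GC trend removed. Dusp22, a regulator of the JNK pathway, was at 9.99 and 12.5 FPKM, and Dusp23 at 8.73 and 10.6 FPKM. Dusp3 (VHR), an ERK and JNK phosphatase, was nearly equal at 7.68 and 8.34 FPKM. Dusp18 was at 4.13 and 4.26 FPKM and Dusp19, a partner of the JNK kinase MKK7, at 1.48 and 2.27 FPKM. The signs of Dusp3, Dusp18 and Dusp19 turned with the GC trend removed (-0.09, -0.21 and -0.12).

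Dusp28 was the atypical DUSP that stood apart. At 3.14 and 1.13 FPKM its shTaz value was 36.0% of control, the lowest percentage of any member above the minimum, though its log2 difference was -0.96. It passed 2-fold with a pseudocount of 0.1 (-1.40), median-ratio scaling (-1.05) and quantile normalization (-1.13), and was -0.69 with the GC trend removed. Its level is close to the floor, where the added 1 FPKM weighs most. The remaining atypical genes were under a mean of 1 FPKM: Dusp13, of muscle and testis, was at 0.191 and 0.487 FPKM, Dusp14 at 0.878 and 0.776, Dusp15 at 0.831 and 0.477, and Dusp27, of muscle, at 0.174 and 0.125 FPKM. Of the 7 members under the minimum, which also include Dusp8, Dusp9 and Etv1, 2 had the higher value in shTaz and 5 in shLuc.

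The sign of a difference depended on the processing for some members. Under the deposited values and 8 alternatives, 11 of the 25 members were higher each time the setting kept them, 5 were lower each time, and 9 had both signs. The 11 were Dusp2, Dusp4, Dusp5, Dusp6, Dusp12, Dusp16, Dusp22, Dusp23, Etv5, Spred2 and Spred3. Of these, Dusp2 passed the minimum only through its shTaz value, which favours the higher sign. Dusp1, Spry1, Dusp28, Spred1 and Etv4 were the 5. Size alone did not sort them, since Dusp11 (0.48) and Dusp19 (0.40) were among the 9 while Dusp23 (0.25) and Spred1 (-0.25) were not. Dusp1 ranged from -1.22 to -1.002 and Dusp4 from 1.07 to 1.43. The background moved as well. The share of all genes 2-fold lower and 2-fold higher was 4.7% and 8.55% with a pseudocount of 0.1, 4.23% and 2.66% with median-ratio scaling, and 3.91% and 2.52% with quantile normalization. It was 3.17% and 1.5% without the GC trend, and 2.74% and 1.7% without the GC and length trends. Most 2-fold genes were thus on the higher side as deposited and on the lower side after scaling or trend removal. The members had 1 to 3 lower and 1 or 2 higher genes, too few to compare with these shares.

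**Figure D4:**
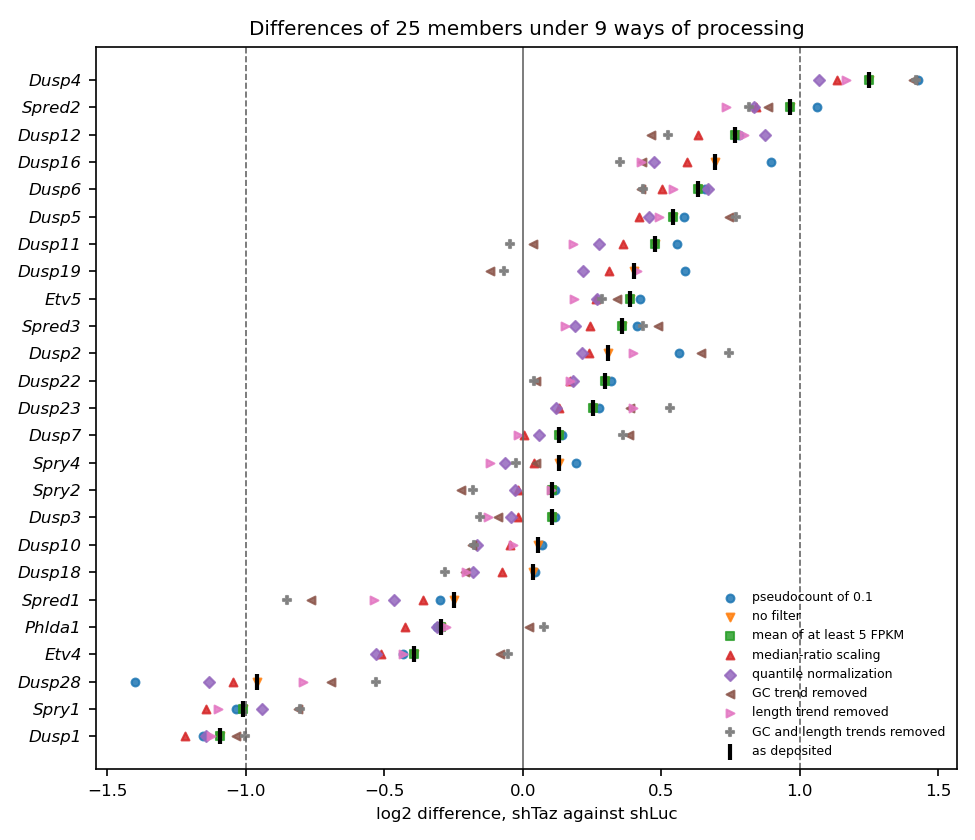
Log2 difference (horizontal axis) of the 25 members above the minimum, one gene per line, as deposited (black bar) and under 8 alternatives (coloured symbols); dashed lines mark 2-fold. Dusp1 and Dusp4 keep beyond the lines throughout, Spry1 lies between -1.14 and -0.80, and the genes in the middle, from Dusp7 to Dusp18, cross 0.

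Other genes of the pathway were read from 4 lists. Of 20 components of the RAS to ERK cascade, 1 was 2-fold higher and none 2-fold lower, with a median of 0.38 that was 0.12 without the GC trend, 0.13 without either trend and 0.10 with a minimum mean of 5 FPKM. The one was Rps6ka3, the ERK-activated kinase RSK2, at 2.55 and 10.6 FPKM. Of 16 measured members of the p38 and JNK cascade, 1 was 2-fold higher and none lower, with a median of 0.31 that was 0.26 without the GC trend. It was Map2k6 (MKK6), the activator of p38, at 1.59 and 6.07 FPKM.

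Of 9 measured negative regulators of RAS none differed 2-fold. The median was 0.41, or 0.20 without the GC trend and 0.11 without either trend. As deposited, the largest differences were those of the GTPase-activating protein genes Rasa2 (1.84 and 3.78 FPKM, 0.75) and Rasal2 (2.06 and 3.92 FPKM, 0.69), which were 0.20 and 0.39 without the GC trend. Of 12 other ERK-induced genes none differed 2-fold as deposited, and 6 were higher and 6 lower. Their median of 0.11 was 0.14 without the GC trend and 0.13 without either trend. It turned to -0.02 with median-ratio scaling and -0.04 with a minimum mean of 5 FPKM. Fosl1 passed 2-fold without the GC trend (1.06) and without either trend (1.13), and Ier3 only without either (0.80 and 1.01). Plaur was the lowest of the list under both settings (-0.39 and -0.34). Epha4 (1.83 and 3.95 FPKM) and Fosl1 (4.08 and 7.64 FPKM), which encodes the AP-1 protein FRA-1, differed most. Fos, at 6.94 and 6.68 FPKM, and Egr1, at 52.0 and 50.4 FPKM, immediate early genes like Dusp1, were nearly level beside the lower Dusp1. Others in the list were not level. Ier2 (116 and 88.1 FPKM) and Myc (28.2 and 23.8 FPKM) were lower, and Ier3 (47.7 and 79.5 FPKM) and Junb (231 and 284 FPKM) higher. Cyclin D1 (Ccnd1) was at 71.0 and 94.4 FPKM. As deposited, these list medians should be read against the median of all genes, 0.12. That all-gene median was 0.003 without the GC trend and 0.003 without either trend. It was 0.03 with a minimum mean of 5 FPKM and 0.00 with median-ratio scaling.

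Some cell type markers also differed between the columns. Grafted cells and host are both from mouse, so these transcripts cannot be assigned to either. Of 9 fibroblast markers 4 were 2-fold lower and none 2-fold higher, where 3.25% of all genes were 2-fold lower. The 4 were Dpt (18.4 and 1.16 FPKM), Dcn (13.8 and 1.85 FPKM), Postn (35.5 and 8.29 FPKM) and Col1a2 (334 and 138 FPKM). The summed level of the 9 was 2194 FPKM in control tumors and 1400 FPKM in shTaz tumors. Most of that sum, and of its gap, came from Col1a1, at 1375 and 841 FPKM. Its log2 difference of -0.71 was short of 2-fold and was -0.39 with the GC trend removed. Col3a1 was level at 372 and 371 FPKM and Pdgfra higher at 8.75 and 13.5 FPKM. Endothelial markers summed to 135 and 90.6 FPKM, with none of 7 measured members past 2-fold. Of the 7, 5 were lower and 2 higher. Most of the gap in the sum came from Plvap (67.2 and 36.2 FPKM). Cldn5 (18.2 and 10.3 FPKM) and Esam (14.6 and 9.39 FPKM) were also lower. Pecam1 was at 11.5 and 10.8 FPKM, Cdh5 at 16.1 and 15.0 FPKM and Kdr higher at 1.69 and 2.68 FPKM. These sums are not adjusted for GC. With the GC trend removed, Plvap went from -0.88 to -0.47, Cldn5 from -0.76 to -0.36 and Esam from -0.59 to -0.54. Pecam1 was then at -0.23, Cdh5 at -0.13 and Kdr at 0.27, and Emcn turned from 0.17 to -0.36. Macrophage markers were close in sum, at 5124 and 4977 FPKM, and none of 10 differed 2-fold. Skeletal muscle markers summed to 15.6 and 38.4 FPKM. Of 5 measured members 4 were 2-fold higher, against 3.96% of all genes, and 1 was lower. Tnnt3 was at 1.61 and 8.004 FPKM, and the lower one, Tnnc2, at 12.4 and 5.86 FPKM. Acta1, Myh4 and Myl1 had 0 FPKM listed in control tumors. Of these Acta1, as well as Ckm and Mylpf, passed the minimum only through their shTaz value. Epithelial markers summed to 117 and 113 FPKM, with none of 4 measured members past 2-fold and Cldn4 listed at 0 in the shLuc column. The summed fibroblast and endothelial levels were thus lower together with Spry1 and Dusp1, though not every marker was, and their part in those differences was not tested.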

How the data were processed

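Tumor RNA was measured by RNA sequencing in 2 shLuc and 2 shTaz samples. Trim Galore, TopHat and the mm10 build are named in the submitters' processing notes; their versions, the FPKM program, annotation and strand setting are not given in the sources used here. The authors deposited FPKM values for 15424 genes, 1 column per group; how the samples of a group were joined is not stated. The column headings match a label shared by both samples of a group. FPKM corrects for neither GC content nor a few very abundant RNAs. Depth is unknown.

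Differences were computed as log2 with a pseudocount of 1 FPKM for genes whose mean reached 1 FPKM (Python 3.11.15, pandas 2.3.3) and tested on simulated data. With 1 column per group no test was run. Every member is named, and of each pathway list the 2-fold genes or else the 2 that differed most. Fos, Egr1, Ccnd1, Ier2, Ier3, Junb and Myc were named after their values were seen. GC content and length came from the longest transcript in GENCODE M21, for 94.9% of genes and all 32 members. Trends were removed by lowess (span 0.3, statsmodels 0.14.6). Hras and Adgre1 were found under older symbols. Promoters are from RefSeq. The members and lists were chosen with earlier results of these data known.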

Additional observations from a re-analysis of the deposited data

How the results depend on the processing

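Values were recomputed with a smaller pseudocount (0.1), without the filter, with a minimum mean of 5 FPKM, after scaling by median ratios, after quantile normalization, and after taking out the GC trend, the length trend or both. No paired analysis was possible because the table holds 1 column per group, and no replicate could be left out for the same reason. The median of all genes was 0.12 as deposited and 0.00 after median-ratio scaling. It was 0.13 with the smaller pseudocount, 0.086 without the filter, 0.031 with the higher minimum and 0.022 with quantile normalization. Without the GC trend it was 0.003, without the length trend -0.002 and without both 0.003. The median of the members, 0.25 as deposited, was 0.28 with the smaller pseudocount, 0.13 without the filter, 0.30 with the higher minimum, 0.13 with median-ratio scaling and 0.12 with quantile normalization. Without the GC trend it was 0.049, without the length trend 0.15 and without both 0.040. The count of members 2-fold lower, 2 as deposited, was 1 (Dusp1) without the GC trend and 1 (Dusp1) without both trends, but 3 with the smaller pseudocount and with median-ratio scaling, where Dusp28 was added. With quantile normalization the 2 were Dusp1 and Dusp28, not Spry1. The count 2-fold higher, 1 as deposited, was 2 (Dusp4 and Spred2) with the smaller pseudocount. Of the 192 alternative values of single members, 28 had another sign than the deposited values gave, none of them for a member past 2-fold. Without counts per gene, no precision can be given for any value, and members near 1 FPKM are the least certain.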
